A study of Mus musculus with 12 samples.

Results

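The genes described here make, store and break down glycogen, the branched glucose polymer that muscle keeps as a fuel reserve. They are 8 protein-coding genes picked by name, Ugp2, Gys1, Gbe1, Pygm, Phka1, Phkg1, Ppp1r3a and Ppp1r3c, out of the 56162 features in the deposited tables, and each was found once. The choice was made with earlier results of these data known. Shares of the 8 genes set beside shares of all genes are therefore descriptions only. RNA sequencing was done on 12 libraries of mouse myofibers, in 4 groups of 3. Type I fibres are the slow, oxidative fibres, taken here from the soleus, and type IIb fibres are the fast, glycolytic fibres, taken here from the extensor digitorum longus. The study asked how endurance training changes expression in each fibre type.

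All mice were male C57BL/6J with a labelled age of 8 weeks, which the labels place neither before nor after the training, and no transgene or deletion is named. The groups were type I trained, type I untrained, type IIb trained and type IIb untrained. Trained mice ran on a treadmill at 12 to 16 m/min for 60 min, 5 days a week over 6 weeks, with death 3 days after the final run. Untrained mice were the controls. Collagenase digestion (2 mg/ml at 37 °C) freed the fibres of all groups, with 90 min given to soleus and 60 min to extensor digitorum longus, so fibre type, muscle and digestion time changed together and cannot be told apart. Each fibre was cut, with one piece used to type its myosin heavy chain protein and another sequenced. Whether a library holds 1 fibre or several is not stated. The labels do not tie libraries to animals, and p-values here therefore rest on a spread between libraries that may be technical.

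Glycogen is built from UDP-glucose, which UDP-glucose pyrophosphorylase supplies. Glycogen synthase adds glucose to the growing chains and the branching enzyme introduces the branch points, while glycogen phosphorylase removes glucose from the chain ends once phosphorylase kinase has activated it. Glycogen-targeting subunits bring protein phosphatase 1 to the particle, where the phosphatase activates the synthase and inactivates the phosphorylase. Fast glycolytic muscle is known for rapid glycogen use during contraction.

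The libraries held 8026397 to 24995288 counts and 3636 to 14428 genes with at least 10 counts. The fewest genes were in type IIb untrained library 1 (3636) and type IIb trained library 1 (4291). By group, these genes numbered 6082 to 11852 in type I trained and 9711 to 14428 in type I untrained libraries. They numbered 4291 to 10932 in type IIb trained and 3636 to 9170 in type IIb untrained libraries. Myosin counts matched the labels. Myh7, the slow heavy chain, held 80.5 to 99.8% of the counts of 4 heavy chain genes in the 6 type I libraries, and Myh4, the IIb heavy chain, held at least 99.7% in the 6 type IIb libraries. The lowest Myh7 share was in type I untrained library 1, with 10.5% Myh2 and 8.92% Myh1, the heavy chains of type IIa and IIx fibres, and the next lowest in type I trained library 2, with 91.5% Myh7 and 8.04% Myh1. Markers of non-muscle cells were uneven. The summed level of 8 endothelial genes was 0.0718 to 35.9 CPM (counts scaled to library size) in type I trained, 17.1 to 639.9 CPM in type I untrained, 0 to 136 CPM in type IIb trained and 0 in all type IIb untrained libraries. The summed level of 6 fibroblast genes reached 8825 CPM in type I untrained library 3. Levels of single genes below are CPM on library sizes scaled by edgeR's TMM method, and changes are log2 fold changes with an SE derived from the test. Called genes are those with an adjusted p (Benjamini-Hochberg, over all 11747 genes tested) under 0.05 in edgeR's quasi-likelihood test, and all 8 glycogen genes were among those tested.

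In type I fibres, set against type IIb, 2 of the 3 breakdown genes were called lower, and no gene of the synthesis enzymes was called. The other breakdown gene, Phkg1, was lower on average without passing the test. Averaged over training states, 3 of the 8 genes were called, all of them lower in type I: Pygm (muscle glycogen phosphorylase), Phka1 (a regulatory subunit of phosphorylase kinase) and Ppp1r3a (the striated-muscle targeting subunit of protein phosphatase 1). Of all genes tested, 0.826% were called lower and 1.11% higher in type I, which were 97 and 130 genes. With library totals in place of TMM scaling the split was 56 lower and 158 higher. Of the synthesis genes, Ugp2 and Gys1 had overlapping libraries, and Gbe1, the branching enzyme, was higher in every type I library without passing the test. The median log2 change was -1.34 over the 8 genes, against 0.60 over all genes tested. With library totals in place of TMM these medians were -0.87 and 1.15. More genes were detected in the type I untrained than in the type IIb libraries on average, and the part of detection in these medians was not tested. CPM are shares of a library, so less of one transcript and more of the others cannot be told apart. Beside this, the libraries with the most endothelial marker RNA lay unequally across the groups (type I untrained libraries 1 and 3 and type IIb trained library 3). Without them, a fit that leaves 1 type I untrained library and assumes it varies like the other groups, none of the 8 genes was called among 13619 genes tested, with log2 changes of -3.07 for Pygm, -2.95 for Phka1 and -2.0 for Ppp1r3a (adjusted p = 0.136, 0.116 and 0.0679).

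**Figure D1:**
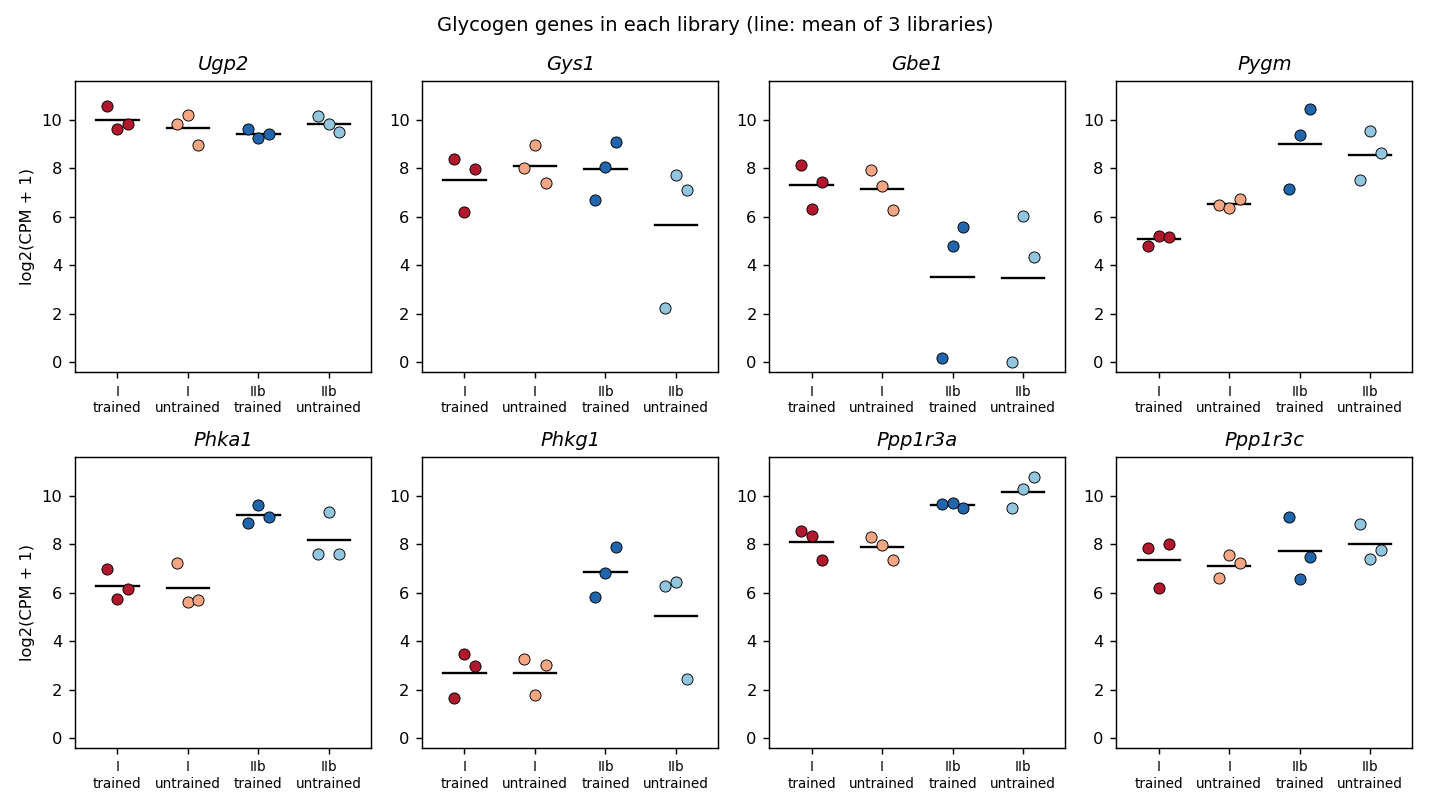
Levels of the 8 glycogen genes as log2(CPM + 1), one panel per gene and one point per library, with a line at the mean of the 3 libraries of a group. Pygm, Phka1 and Ppp1r3a lie lower in all 6 type I libraries than in all 6 type IIb libraries, and Gbe1 lies higher.

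The promoters of the 3 called genes and of Gbe1, the gene that was higher in type I libraries, are shown because all 6 type I libraries of each lay apart from all 6 type IIb libraries. Each run is the 250 bases before the RefSeq start on GRCm38.p6, read 5′ to 3′ on the gene's strand. They lie at chr19:6384158-6384407 (plus strand, Pygm), chrX:102644247-102644496 (minus strand, Phka1), chr6:14755275-14755524 (minus strand, Ppp1r3a) and chr16:70313699-70313948 (plus strand, Gbe1). Capitals mark the E-box, CANNTG, which reads the same pattern on both strands, and in Ppp1r3a also a match to the MEF2 motif. MEF2 factors and the E-box-binding MyoD family act in muscle.
Pygm: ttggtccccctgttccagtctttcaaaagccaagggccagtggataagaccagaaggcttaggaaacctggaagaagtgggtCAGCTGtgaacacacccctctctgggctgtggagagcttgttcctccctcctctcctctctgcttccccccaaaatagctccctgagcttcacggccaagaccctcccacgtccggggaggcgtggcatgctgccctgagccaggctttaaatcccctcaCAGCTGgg
Phka1: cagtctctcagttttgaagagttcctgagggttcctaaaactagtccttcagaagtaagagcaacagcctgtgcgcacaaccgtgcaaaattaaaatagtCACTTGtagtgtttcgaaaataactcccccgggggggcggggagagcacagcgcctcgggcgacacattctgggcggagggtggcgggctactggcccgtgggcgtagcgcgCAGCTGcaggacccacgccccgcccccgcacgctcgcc
Ppp1r3a: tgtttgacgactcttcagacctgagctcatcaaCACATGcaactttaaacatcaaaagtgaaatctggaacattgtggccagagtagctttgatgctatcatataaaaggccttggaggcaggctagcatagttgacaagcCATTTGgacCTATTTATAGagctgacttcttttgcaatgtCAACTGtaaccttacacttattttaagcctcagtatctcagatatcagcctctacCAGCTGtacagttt
Gbe1: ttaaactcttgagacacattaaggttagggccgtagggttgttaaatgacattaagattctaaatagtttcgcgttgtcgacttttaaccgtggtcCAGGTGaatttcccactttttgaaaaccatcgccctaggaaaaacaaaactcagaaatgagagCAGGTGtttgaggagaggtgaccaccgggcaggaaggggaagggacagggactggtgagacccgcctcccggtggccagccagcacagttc
The last bases of the Pygm run lie inside the gene as GENCODE M21 draws it. There were 2 E-boxes each in the runs of Pygm, Phka1 and Gbe1 and 4 in that of Ppp1r3a, none of them overlapping the MEF2 match. All 9 promoters of the 8 genes held an E-box (Ugp2 has 2 listed starts), as did 66.2% of 32851 RefSeq promoters of the same length. The MEF2 motif was in 1 of the 9, that of Ppp1r3a, and in 2.92% of all promoters. A match describes the letters and is no evidence of binding.

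Among the synthesis genes, Ugp2 (ENSMUSG00000001891, UDP-glucose pyrophosphorylase, mm10 chromosome 11, 21321138 to 21371201, minus strand) had overlapping levels in the fibre types. It had 1526, 779 and 910.4 CPM in type I trained and 911, 1191 and 496 CPM in type I untrained libraries, against 777, 614 and 689 CPM in type IIb trained and 1157, 919 and 732 CPM in type IIb untrained libraries. The fibre types overlapped over all libraries, while in trained mice alone every type I library was above every type IIb library. The closest of these were nearly tied, at 779 and 777 CPM. The type I minus type IIb change was 0.26 ± 0.31 (SE) as a mean over training states (adjusted p = 0.824), 0.63 ± 0.44 in trained (adjusted p = 0.813) and -0.11 ± 0.43 in untrained mice (adjusted p = 0.986). The sign in untrained mice turned with the scaling (0.08 with RLE size factors and 0.37 with library totals). Of its exon bases 2.54% lie over Gm12043 on the other strand.

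Gys1 (ENSMUSG00000003865, muscle glycogen synthase, chromosome 7, 45434844 to 45456619, plus strand) varied widely inside each group. It had 336, 72.6 and 248 CPM in type I trained and 257, 494 and 166 CPM in type I untrained libraries. In type IIb fibres it had 104, 264 and 547 CPM in trained and 3.67, 208 and 135 CPM in untrained libraries. The lowest value came from the library with the fewest genes detected, where Gys1 had 34 counts. The groups overlapped, and the type I minus type IIb change was 0.46 ± 0.67 as a mean over training states (adjusted p = 0.869), -0.48 ± 0.95 in trained (adjusted p = 0.997) and 1.40 ± 0.97 in untrained mice (adjusted p = 0.608). Of its exon bases 6.47% lie over Ruvbl2 on the other strand, and the library kit does not mark strand.

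Gbe1 (ENSMUSG00000022707, glycogen branching enzyme, chromosome 16, 70313949 to 70569716, plus strand) lay higher in type I libraries without passing the test. It had 282, 79.2 and 174 CPM in type I trained and 243, 154 and 77.2 CPM in type I untrained libraries. The type IIb libraries had 0.129, 26.7 and 47.5 CPM in trained and 0, 65.2 and 19.1 CPM in untrained libraries. Every type I library was above every type IIb library, which held for 2.5% of all genes tested in this direction. The mean was 168 ± 83.6 CPM in type I against 26.4 ± 26.0 CPM in type IIb fibres (SD, n = 6 each). The change of 2.67 ± 1.13 was not called (adjusted p = 0.224), while limma on log2(FPKM + 1) called it at 3.69 (adjusted p = 0.0294). The values at 1 and 0 counts were those of the 2 libraries with the fewest genes, in which 3 counts are 0.316 and 0.309 CPM of the library total. Across the 12 libraries Gbe1 had r = 0.755 with the log10 count of detected genes (log2 levels, description only, sharing the libraries' depth), and the part of detection in this difference was not tested. Without those 2 libraries the change was 2.10 (adjusted p = 0.114).

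Among the breakdown genes, Pygm (ENSMUSG00000032648, chromosome 19, 6384399 to 6398459, plus strand) had the largest called change of the 8. It had 26.6, 36.5 and 35.4 CPM in type I trained and 88.4, 81.6 and 107 CPM in type I untrained libraries. In type IIb fibres it had 141, 662 and 1393 CPM in trained and 183, 733 and 399.7 CPM in untrained libraries. The lowest type IIb library was above the highest type I library, as for 1.06% of all genes in this direction. The mean was 62.5 ± 33.7 CPM in type I against 585 ± 463 CPM in type IIb fibres (SD, n = 6 each), a change of -3.36 ± 0.53 (adjusted p = 0.00105). Left out in turn, no single library took this call away, and the adjusted p lay between 9.24e-05 and 0.00446.

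Phka1 (ENSMUSG00000034055, the muscle alpha subunit of phosphorylase kinase, chromosome X, 102513975 to 102644246, minus strand) was lower in type I fibres too. It had 126, 52.1 and 68.9 CPM in type I trained and 146, 48.0 and 50.9 CPM in type I untrained libraries. The type IIb libraries had 466, 789 and 546 CPM in trained and 190.0, 632 and 189.7 CPM in untrained libraries. No type I library reached the lowest type IIb library, although type I untrained library 1 came near it. The mean was 82.0 ± 42.9 CPM in type I against 469 ± 241 CPM in type IIb fibres (SD, n = 6 each), a change of -2.46 ± 0.49 (adjusted p = 0.0100). The call was lost without type IIb untrained library 2 (-2.04, adjusted p = 0.05), with library totals in place of TMM (-1.93, adjusted p = 0.0522), with no filter (adjusted p = 0.0587) and by limma on log2(FPKM + 1) (adjusted p = 0.0918). Limma on log2(FPKM + 0.1) did not make it either, nor, as given above, did the fit without the 3 libraries rich in endothelial markers.

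Phkg1 (ENSMUSG00000025537, the catalytic gamma subunit of muscle phosphorylase kinase, chromosome 5, 129863421 to 129898549, minus strand) had the lowest mean FPKM of the 8 genes in type I fibres (5.34 in trained and 6.36 in untrained libraries). Its levels were 2.11, 10.1 and 6.83 CPM in type I trained and 8.54, 2.43 and 7.0 CPM in type I untrained libraries. In type IIb fibres it had 54.7, 111 and 233 CPM in trained and 76.2, 85.9 and 4.41 CPM in untrained libraries. Type IIb untrained library 3 lay among the type I libraries, and the other 5 type IIb libraries were above all of them. The change of -3.80 ± 1.04 was not called (adjusted p = 0.068). DESeq2 called it at -3.66 (adjusted p = 0.000816), as did edgeR without the 2 libraries with the fewest genes (-3.82, adjusted p = 0.0426). Of its exon bases 9.68% lie over Sumf2 on the other strand.

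Of the phosphatase targeting subunits, Ppp1r3a (ENSMUSG00000042717, chromosome 6, 14713977 to 14755274, minus strand) was lower in type I fibres. It had 372, 319.9 and 162 CPM in type I trained and 313, 248 and 159 CPM in type I untrained libraries. The type IIb libraries had 807, 830.3 and 713 CPM in trained and 708, 1229 and 1723 CPM in untrained libraries. The fibre types did not overlap. The mean was 262 ± 88.1 CPM in type I against 1002 ± 402 CPM in type IIb fibres (SD, n = 6 each), a change of -1.90 ± 0.35 (adjusted p = 0.00501). The call was lost with no filter (adjusted p = 0.0651) and by limma on log2(FPKM + 1) (adjusted p = 0.0889), and no single library ended it. It was also not made by limma on log2(FPKM + 0.1) or, as given above, without the 3 libraries rich in endothelial markers.

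Ppp1r3c (ENSMUSG00000067279, a targeting subunit found in many tissues, chromosome 19, 36731731 to 36736653, minus strand) was not called. It had 227, 71.9 and 253 CPM in type I trained and 94.9, 186 and 147 CPM in type I untrained libraries. In type IIb fibres it had 551, 92.7 and 175 CPM in trained and 456, 167 and 218 CPM in untrained libraries. The groups overlapped, with the 2 highest values in the type IIb libraries with the fewest genes, and the change was -0.77 ± 0.52 (adjusted p = 0.539). Without those 2 libraries it was 0.03.

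**Figure D2:**
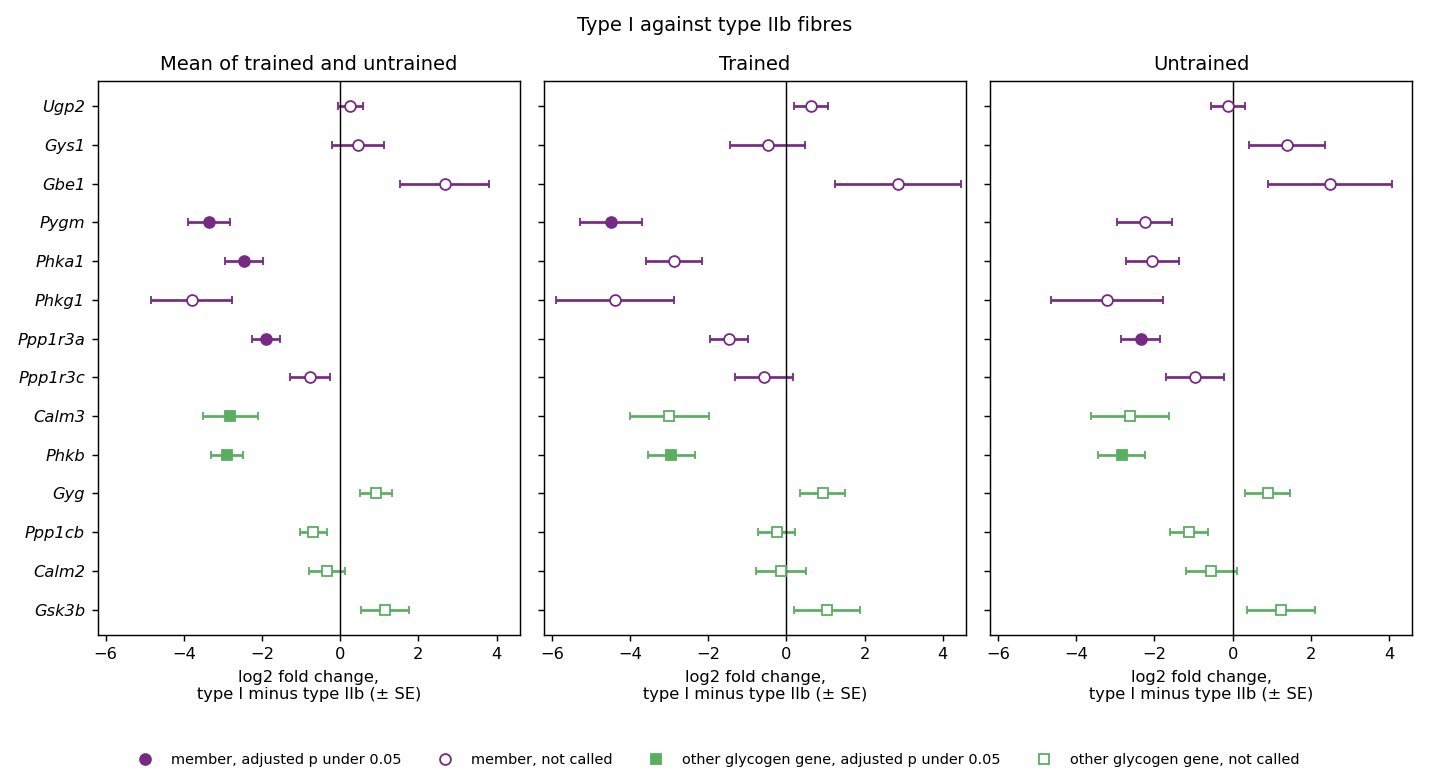
Log2 fold change, type I minus type IIb (x axis, ± SE), of the 8 glycogen genes (circles) and of 6 other glycogen genes (squares), as a mean over training states, in trained and in untrained mice. Filled symbols passed an adjusted p under 0.05: Pygm, Phka1, Ppp1r3a, Phkb and Calm3 in the mean, Pygm and Phkb in trained mice, and Ppp1r3a and Phkb in untrained mice.

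Within each training state the fibre comparison called 1 of the 8 genes. In trained mice Pygm was called at 32.8 ± 5.41 CPM in type I against 732 ± 629 CPM in type IIb fibres (SD, n = 3 each), a change of -4.48 ± 0.79 (adjusted p = 0.00709), where 0.298% of all genes were called lower. Without type IIb trained library 3 it was -3.63 (adjusted p = 0.0414), and without the 3 libraries rich in endothelial markers -3.61 (adjusted p = 0.0642). In untrained mice Ppp1r3a was called at 240.0 ± 77.3 CPM in type I against 1220.1 ± 508 CPM in type IIb fibres (SD, n = 3 each), a change of -2.35 ± 0.50 (adjusted p = 0.0382), where 0.204% of all genes were called lower. This call was lost when any of 6 libraries was left out, namely the 3 type I untrained libraries, type IIb untrained libraries 2 and 3 and type IIb trained library 2 (adjusted p = 0.0594 to 0.365). It was also not made by DESeq2 or by limma. In trained mice 4 of the 8 genes (Pygm, Phka1, Phkg1 and Ppp1r3a) were lower and 2 (Gbe1 and Ugp2) higher in every type I library, against 3.77% and 6.72% of all genes. For Ugp2 this was a near tie, with 779 CPM in type I trained library 2 and 777 CPM in type IIb trained library 1. In untrained mice 3 (Pygm, Phka1 and Ppp1r3a) were lower and 1 (Gbe1) higher in every type I library, against 4.88% and 22.8% of all genes. The change of Pygm in untrained mice was -2.25 ± 0.71 (adjusted p = 0.230) and that of Ppp1r3a in trained mice -1.46 ± 0.49 (adjusted p = 0.445), and neither gene's difference between training states passed the interaction test given below.

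Compared per length within a library, Ugp2 was the most abundant of the 8 transcripts in all 6 type I libraries, while the first gene in type IIb libraries depended on the gene length used. The deposited FPKM values (counts scaled to gene length and library total) put Ugp2 first in 6 of 6 type I and 5 of 6 type IIb libraries, where it held 54.0 to 74.0% and 22.4 to 62.9% of the summed FPKM of the 8 genes. In type IIb trained library 3 Pygm was first. The table's gene lengths are shorter than the annotated exons for 6 of the 8 genes, Ugp2 among them (1444 and 3069 bases), and equal for Ppp1r3a and Ppp1r3c. With the union of GENCODE M21 exons as length Ugp2 was first in 6 of 6 type I and 3 of 6 type IIb libraries, with 49.1 to 67.3% and 20.99 to 50.6% of the sum. Pygm was then first in type IIb trained libraries 2 and 3, and Ppp1r3a in type IIb untrained library 3. By deposited FPKM, Pygm held 1.03 to 10.1% of the sum in type I and 7.52 to 39.5% in type IIb libraries. Gbe1 held 4.40 to 9.27% in type I libraries and at most 1.60% in type IIb libraries.

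**Figure D3:**
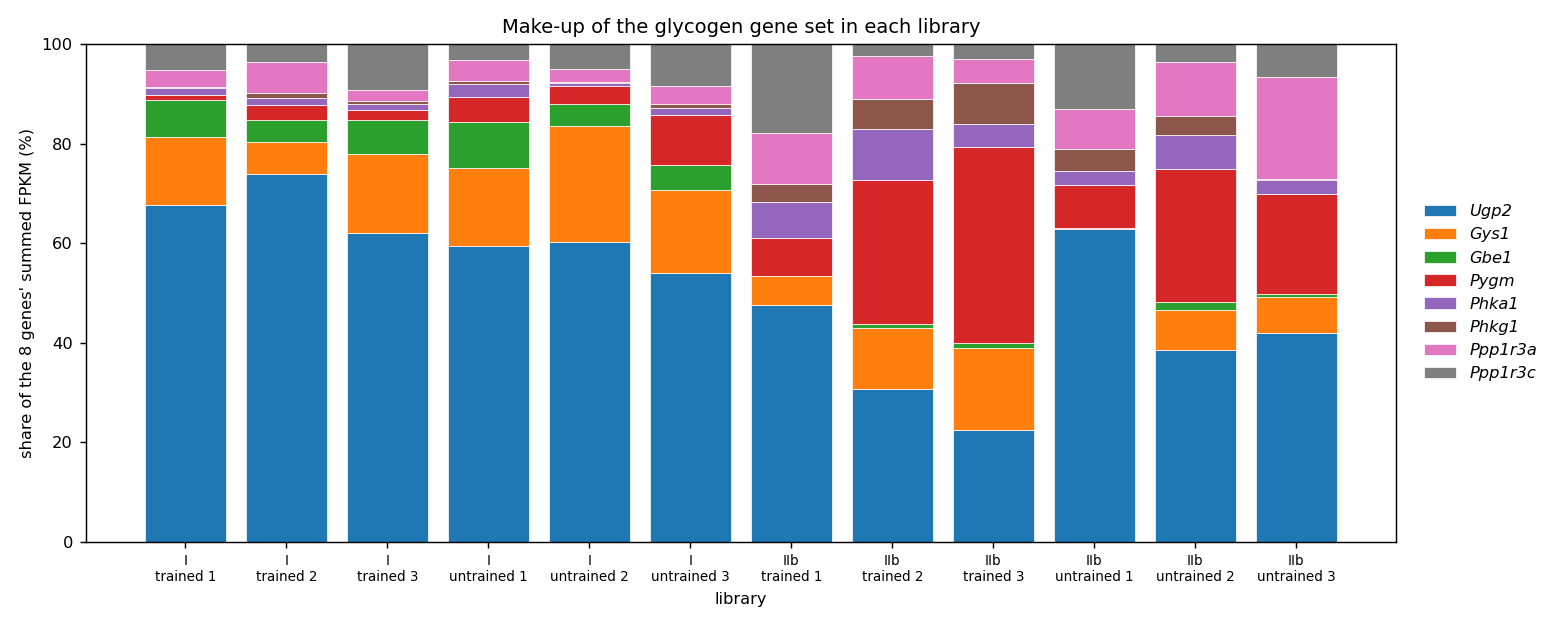
Share of the summed FPKM of the 8 glycogen genes taken by each gene (y axis, %), one bar per library. With the deposited lengths drawn here Ugp2 takes the largest share in 11 of 12 bars (9 of 12 with exon lengths), and the Pygm share is wider in most type IIb bars, up to 39.5% in type IIb trained library 3.

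The order of synthase and phosphorylase transcripts turned round between the fibre types. The FPKM of Gys1 was 1.65 to 13.4 times that of Pygm in the 6 type I libraries (median 4.76) and 0.0213 to 0.784 times in the 6 type IIb libraries (median 0.389). Gys1 alone overlapped between the fibre types while Pygm lay apart, so this ratio in part restates the Pygm difference. Both values of a ratio come from the same library, so library scaling drops out of it. The table's lengths are 1656 bases for Pygm and 1558 for Gys1, and the exon unions 3218 and 4789. With exon lengths the ratios were 1.05 to 8.48 in type I and 0.0135 to 0.495 in type IIb libraries, so the libraries lay on the same sides of 1 with either length. Gbe1 over Pygm was 0.486 to 7.11 in type I and 0 to 0.0597 in type IIb libraries. Each of these genes already lay apart between the fibre types, in opposite directions, so their ratio had to lie apart too. Ugp2 over Pygm was 5.34 to 65.7 in type I and 0.568 to 7.25 in type IIb libraries, where the ranges overlapped. Ppp1r3c over Ppp1r3a was 0.575 to 4.0 in type I and 0.285 to 1.75 in type IIb libraries, also overlapping. These ratios are descriptions without a test.

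**Figure D4:**
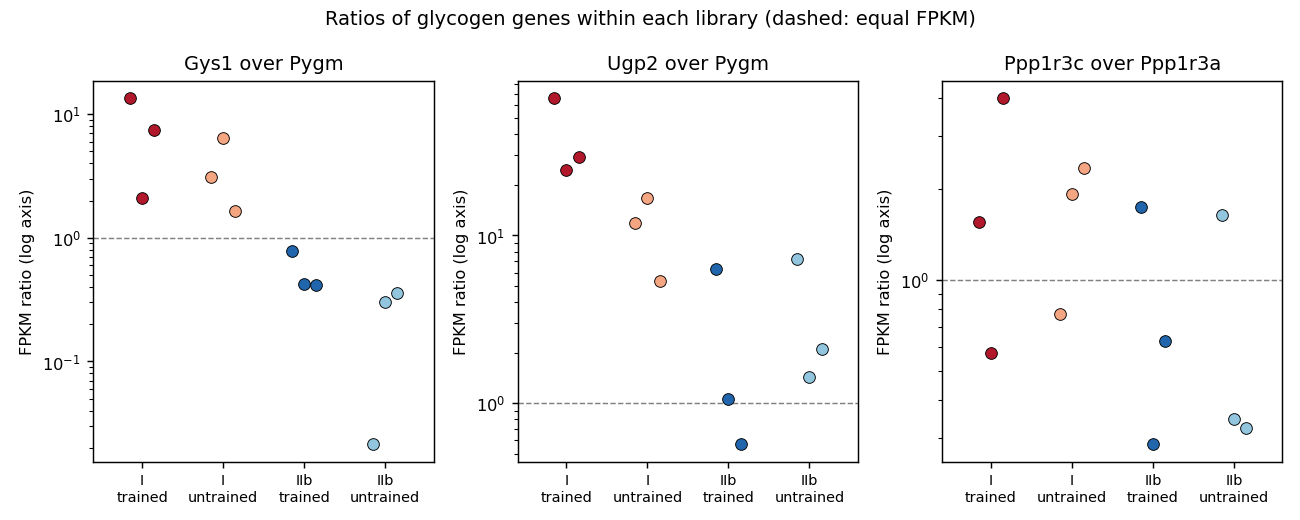
FPKM ratios within each library on log axes, one point per library, with the dashed line at equal FPKM. Gys1 over Pygm is above 1 in all 6 type I libraries (1.65 to 13.4) and below 1 in all 6 type IIb libraries (0.0213 to 0.784), while Ppp1r3c over Ppp1r3a overlaps.

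Training moved none of the 8 genes past the threshold in either fibre type. The same was true of all genes, with 0% called in both comparisons by edgeR, while 2.94% in type I and 8.21% in type IIb fibres had an unadjusted p under 0.05. DESeq2 called 59 genes in type I and 364 in type IIb fibres, none of them among the 8. The pooled training effect and the interaction called none of the 8 or of all genes either, with 449 and 1050 genes at an unadjusted p under 0.05 and 227 and 390 called by DESeq2. With no filter on low counts edgeR called 7 genes for training in type I, 9 in type IIb, 5 for the pooled effect and 26 for the interaction, again none of the 8.

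Pygm was the 1 gene of the 8 whose trained and untrained type I libraries did not overlap. All 3 trained libraries (26.6 to 36.5 CPM) were below all 3 untrained libraries (81.6 to 107 CPM), a change of -1.49 ± 0.70 (unadjusted p = 0.046, adjusted p = 1.00). The same separation in this direction was seen in 8.93% of all genes, and the median change of all genes was -0.28. That median was -0.57 with RLE size factors, -1.09 without type I trained library 3 and 0.30 without the 3 libraries rich in endothelial markers. The deposited FPKM of Pygm was also separate, at 13.4, 18.5 and 34.6 in trained and 76.2, 52.4 and 97.4 in untrained type I libraries. The marker sums of other cells covered different, overlapping ranges in these libraries, with endothelial sums of 0.0718 to 35.9 CPM in trained and 17.1 to 639.9 CPM in untrained, and fibroblast sums of 0.296 to 115 CPM in trained and 19.9 to 8825 CPM in untrained. Their part in the difference was not tested, and without the 3 libraries rich in endothelial markers the change was -1.29. In type IIb fibres the trained and untrained libraries overlapped, with a change of 0.74 ± 0.69 (adjusted p = 0.910) that was -0.16 without type IIb trained library 3. The difference between the training effects of Pygm was -2.23 ± 0.98 (unadjusted p = 0.0343, adjusted p = 0.504), so it did not pass the test, and without type IIb trained library 3 it was -1.29 (adjusted p = 0.889). No other gene of the 8 had an interaction with an unadjusted p under 0.05.

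Gys1 with training gave -0.48 ± 0.95 in type I (adjusted p = 1.00) and 1.40 ± 0.97 in type IIb fibres (adjusted p = 0.775), with overlapping libraries in both. With single libraries left out the type IIb value ran from 0.67 to 2.14. The other 6 genes overlapped in both fibre types. Over the 8 genes, 6 were above and 2 below 0 in type I and 4 above and 4 below in type IIb fibres, against 4996 above and 6731 below of all genes in type I and 6810 and 4584 in type IIb. The split of the 8 in type I turned with the scaling, to 2 above and 6 below with RLE size factors or library totals.

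**Figure D5:**
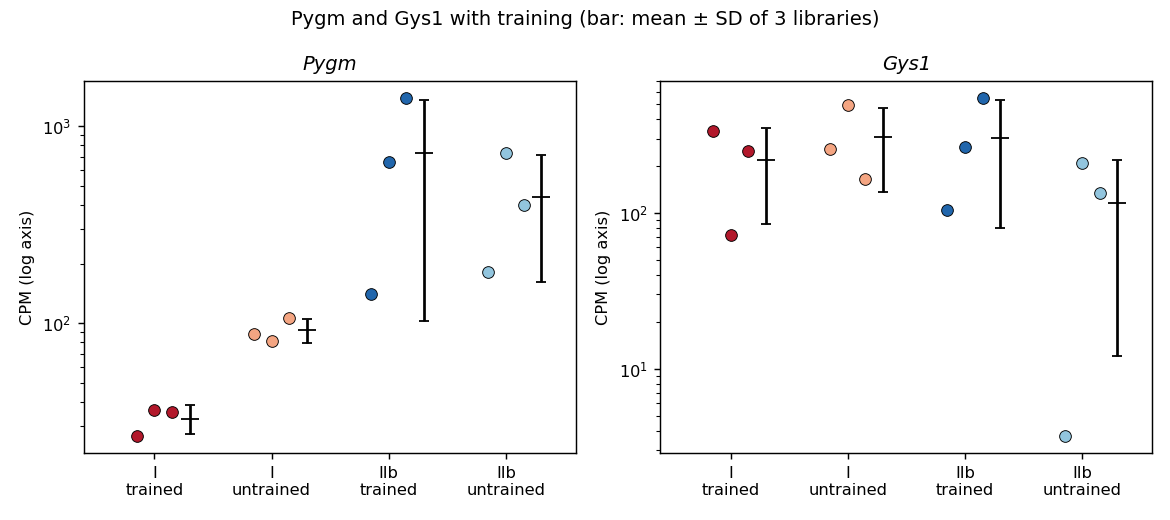
CPM of Pygm and Gys1 on a log axis in each library, with the mean ± SD of 3 libraries beside each group. The trained type I libraries of Pygm (26.6 to 36.5 CPM) lie below the untrained ones (81.6 to 107 CPM), and the groups of Gys1 overlap.

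Of 28 other glycogen gene symbols, 27 were in the tables and 21 were tested. As a mean over training states 2 of these 21 were called lower in type I fibres and 0 higher, against 0.826% and 1.11% of all genes. Their median change was 0.22 against 0.60 over all genes. At an unadjusted p under 0.05 there were 6, where 16.9% of all genes had one. Phkb, the beta regulatory subunit of phosphorylase kinase, had 67.0 ± 15.7 CPM in type I against 498 ± 147 CPM in type IIb fibres (SD, n = 6 each), a change of -2.89 ± 0.41 (adjusted p = 0.000378). Phkb kept this call with each library left out in turn (adjusted p = 0.000187 to 0.00286). It was called in trained (-2.94 ± 0.59, adjusted p = 0.0210) and in untrained mice (-2.84 ± 0.59, adjusted p = 0.0290) as well, although each of these calls was lost when any of 7 libraries was left out. In trained mice these were the 3 type I trained libraries, type IIb trained libraries 1 and 2 and type IIb untrained libraries 2 and 3 (adjusted p up to 0.189). In untrained mice they were the 3 type I untrained libraries, the 3 type IIb untrained libraries and type IIb trained library 2 (adjusted p up to 0.251).

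Calm3 encodes calmodulin, which also serves as the delta subunit of phosphorylase kinase. It had 21.8 ± 9.73 CPM in type I against 147 ± 98.1 CPM in type IIb fibres (SD, n = 6 each), a change of -2.81 ± 0.71 (adjusted p = 0.0472). The call was lost when any 1 library other than type IIb trained library 1 was left out (adjusted p up to 0.165) and with library totals (adjusted p = 0.0959). Calm2, which also encodes calmodulin, gave -0.34 ± 0.46 (adjusted p = 0.854) and 0.20 with library totals. Without the 3 libraries rich in endothelial markers neither Phkb (-2.94, adjusted p = 0.0558) nor Calm3 (-2.81, adjusted p = 0.482) was called.

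Gyg, glycogenin, which starts a new glycogen particle, had 994 ± 686 CPM in type I against 526 ± 256 CPM in type IIb fibres (SD, n = 6 each), a change of 0.91 ± 0.41 that was not called (adjusted p = 0.251), while limma on log2(FPKM + 1) called it at 1.37 (adjusted p = 0.0481). Ppp1cb, a catalytic subunit of protein phosphatase 1, gave -0.69 ± 0.34 (adjusted p = 0.319), and Gsk3b, a kinase that inhibits glycogen synthase, gave 1.14 ± 0.61 (adjusted p = 0.371). The isoforms known from liver, brain and other tissues were scarce. Gys2, liver glycogen synthase, and Ppp1r3f had 0 counts in all 12 libraries, and 3 counts, the upper limit that a count of 0 allows, are 0.12 to 0.374 CPM in a library. The liver phosphorylase Pygl had 30 counts in all, the gamma subunit Phkg2 had 1, and the targeting subunits Ppp1r3b, Ppp1r3d, Ppp1r3e and Ppp1r3g had 18, 198, 108 and 20. Pygb, brain phosphorylase, averaged 3.00 CPM and Phka2, the liver alpha subunit, 3.65 CPM.

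Across the 12 libraries the profiles of the breakdown genes and Ppp1r3a were positively correlated. The log2 levels of Pygm had r = 0.796 with Phka1, 0.767 with Phkg1 and 0.728 with Ppp1r3a, and Phka1 had 0.816 with Phkg1. Gys1 had r = 0.0740 with Pygm and 0.721 with Gbe1. These are descriptions over libraries that share fibre type and depth, with no test. Gbe1 and Gys1 also rose with the number of genes detected (r = 0.755 and 0.651), while Ppp1r3a and Ppp1r3c fell with it (r = -0.570 and -0.479). Phka1 had r = -0.342, Ugp2 -0.299, Phkg1 -0.247 and Pygm -0.0395. The part of detection in the fibre type changes was not tested. Outside the pathway, the genes whose log2(CPM + 1) was most like the mean profile of the 8 were Plcl2 (r = 0.943), Idh3a (0.906), Cmya5 (0.896), Gm10359 (0.890) and Gm13394 (0.882). Those most like Pygm were Aldoart1 (r = 0.936), Prr33 (0.935), Klhl33 (0.930), Tpi1 (0.925), the triose-phosphate isomerase of glycolysis, and Myom2 (0.911), a sarcomere M-band protein.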

How the data were processed

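The authors deposited raw read counts per gene and FPKM values for 12 libraries. A deposited FPKM value is the count over gene length and library total, which held to 0.1% for 94.5% of nonzero values and 0.361% at most, and the 12 per-sample FPKM tables equalled the series table. TopHat2 and the build mm10 appear per the submitters' processing notes, and for the counter, annotation and filters the sources used here give nothing. Per the labels' protocols, cDNA was amplified with SMART-Seq HT and tagged with Nextera XT, which marks no strand, and reads carry no molecular identifiers, so floors cover counting error only. 1 count was worth 0.0400 to 0.125 CPM of the library total. The table holds 761 features without a gene identifier, which were kept.

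Counts were tested in R 4.3.3 with edgeR 4.0.16 (TMM, robust quasi-likelihood, 1 fit of 4 group means, filter at a minimum count of 10 and a total of 15), which left 11747 genes. Benjamini-Hochberg adjustment ran over all of them. SE is the absolute log2 fold change over the square root of F. Single gene levels are TMM-scaled CPM, and summed markers are CPM of the library total. The scripts were tested on simulated data. Alternatives were RLE factors, no filter, no robust prior, the compared groups alone, a replicate block, DESeq2 1.42.0, limma 3.58.1 on log2(FPKM + 1) and log2(FPKM + 0.1) of the deposited values, and each library left out. Limma compares means of logs, so its changes can be larger or smaller than those of edgeR. The all-gene median of the mean fibre comparison was 0.76 and 1.47 with pseudocounts 1 and 0.1, against 0.60 in edgeR. Added after seeing the data were library totals, no mitochondrially encoded genes, exon-union lengths, and fits without the 3 libraries highest in endothelial markers or the 2 with the fewest genes.

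The 8 members and all lists were chosen with earlier results of these data known. Named were all 8, and of 28 other glycogen symbols those called, the paralogs of members and the next 4 by mean CPM; likeness took the 5 highest r on log2(CPM + 1). Some genes of the list are not reported here. RefSeq promoters (GRCm38.p6) were matched by symbol for all 8. Replicates of a group differed by more than sampling noise, and no library was dropped from the main fit.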

Additional observations from a re-analysis of the deposited data

How the results depend on the processing

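Of the calls among the 8 genes, that of Pygm as a mean over training states held under every alternative but the one without the 3 libraries rich in endothelial markers. The number of the 8 genes called in that comparison, 3, was 1 with no filter and 1 by limma on log2(FPKM + 0.1), 0 without those 3 libraries, 4 by DESeq2 and without the 2 poorest libraries (fewest genes detected), where Phkg1 joined, and 2 to 3 when single libraries were left out. In trained mice the count, 1, was 0 with only the groups compared, by limma on log2(FPKM + 0.1) and without the 3 libraries, 2 by DESeq2, and 1 to 1 with single libraries left out. In untrained mice the count, 1, was 0 with no filter, no robust prior, only the groups compared, either limma fit, DESeq2, library totals or without the 3 libraries, 2 without the 2 poorest libraries, and 0 to 1 with single libraries left out. The counts of the 8 in the training comparisons and the interaction stayed at 0 in all settings run. With the replicate block 0 of the 8 genes were called in untrained mice, 1 in trained mice and 3 in the mean. By limma on log2(FPKM + 1) the mean comparison lost the calls of Phka1 and Ppp1r3a and called Gbe1. With library totals in place of TMM the mean comparison lost the call of Phka1. The numbers were not taken as pairs, and the labels do not tie libraries to animals. To look for pairing, each library's deviations of log2 CPM from its group mean were correlated with those of libraries in other groups. Of 18 same-numbered pairs 4 had r over 0.1 (range -0.121 to 0.199), while different-numbered pairs ran from -0.192 to 0.207. Whole log2 CPM profiles of libraries in the same group had r = 0.576 to 0.766. The best correlation was with the own number in 6 of 12 libraries. These values do not settle whether equal numbers are pairs.

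Signs turned in uncalled changes. Ugp2 in untrained mice was 0.08 with RLE and DESeq2, 0.36 in both limma fits, 0.37 with library totals, 0.20 without the 3 libraries, 0.04 without the 2 poorest libraries and -0.52 to 0.12 with single libraries left out. Gys1 in trained mice was 0.21 without the 3 libraries and -0.92 to 0.18 with single libraries left out, and as a mean over training states it was -0.02 without the 2 libraries. Ppp1r3c in trained mice was 0.01 in both limma fits, 0.51 without the 2 libraries and -0.97 to 0.47 with single libraries left out, and its mean was 0.03 without the 2 libraries. Calm2 was 0.20 with library totals. With training, Gys1 in type I ranged from -0.93 to 0.02 and Pygm in type IIb from -0.16 to 1.33 with single libraries left out, and Pygm in type IIb was -0.21 without the 3 libraries. The causes were not tested.

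The tool moved the count of all genes called. The mean fibre comparison had 227 genes, against 1098 by DESeq2, 592 and 562 by limma with pseudocounts 1 and 0.1, 138 with the block, 89 without the 3 libraries, 131, 146 and 119 without type I untrained library 1, 2 or 3, 134 without type IIb trained library 2 and 151 without type IIb untrained library 3. In trained mice 63 compared with 346, 126 and 115 by the same tools, 41 with the block, 39 with only the groups compared, 36 without type I trained library 1 and 29 without type IIb trained library 2, and in untrained mice 54 compared with 1031, 329 and 307, 123 with no filter, 25 without the 3 libraries, 33, 29 and 22 without type I untrained library 1, 2 or 3 and 27 without type IIb untrained library 3. The all-gene median of the mean fibre comparison was 0.60 with TMM, 0.72 with RLE, 1.15 with library totals, and 0.29 without type I trained library 3, 1.54 without type IIb trained library 3 and 1.73 without type IIb untrained library 2. 3 libraries a group, with a common biological coefficient of variation of 1.61, and libraries with 3636 to 14428 genes limit what changes of single genes can be seen.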
